A study of Homo sapiens with 3 samples.

Results

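The MYC window of 8q24.21 is the 20 kb stretch of chromosome 8 from 128740000 to 128760000 (GRCh37) around the gene MYC, which lies from 128748315 to 128753680. Its contacts were taken from capture Hi-C counts as all pairs between the HindIII target fragments that overlap this window and the captured fragments of chromosome 8. The rule found 5 target fragments of the 3033 of 8q24.21, and 960 of its 582336 pairs of captured and target fragment. Capture Hi-C joins stretches of DNA that were near each other when the nuclei were fixed, then pulls out with probes the joined pairs that involve a chosen region, and counts them by sequencing. Here the 192 captured fragments cover the breast cancer risk region of 8q24.21 from 127886760 to 128470692, and MYC lies on its telomeric side.

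BT483 is a breast cancer line from a primary invasive ductal carcinoma, and its cells were lysed with trypsin. SUM44 is a breast cancer line from a pleural effusion, was grown with 1 nM estradiol, and was lysed with a dounce homogeniser. GM06990 is a lymphoblastoid line of B-lymphocyte origin, was also lysed with a dounce, and is the only line that is not of breast origin. Cells of all lines were fixed in 2% formaldehyde for 5 min, and no line received another treatment per the labels. Each line has 2 replicate columns (n = 2 per line), and nothing says that they came from separate cultures, so p-values measure only the spread between these libraries, which may be technical. The lysis method, medium and origin of the lines cannot be told apart from the lines themselves. Contact counts hold no expression, so neither the cell type nor the activity of MYC could be checked.

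MYC encodes a transcription factor that drives cell growth and division and is raised in many cancers. The stretch centromeric of it holds few protein-coding genes but many long non-coding RNAs and inherited risk variants for breast, prostate and colorectal cancer. Regulatory elements there are known to reach MYC through DNA loops, and the elements in use differ between tissues. In the RefSeq gene order (GRCh38.p14, used for names and order only) the genes before MYC are CCAT1, CASC21, CASC8, CCAT2, POU5F1B, LOC105375754 and CASC11, and PVT1, a long non-coding RNA gene, follows it.

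The 5 fragments of the window span 128738570 to 128764089. Fragments 1 (128738570 to 128740187, 1.618 kb) and 2 (128740188 to 128745990, 5.803 kb) lie upstream of the gene. Fragment 3 (128745991 to 128756979, 10.989 kb) holds the start of MYC and the whole gene, and begins 2.325 kb before the gene does. Fragments 4 (128756980 to 128758566) and 5 (128758567 to 128764089) lie downstream. The midpoints of their pairs with captured fragments are between 269.822 and 873.221 kb apart. A HindIII fragment of this length cannot separate the MYC promoter from the body of the gene.

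The MYC window was contacted most in GM06990 and least in SUM44. The captured region made 2181 and 2265 contacts with the window in the replicates of GM06990, 822 and 3141 in those of BT483, and 2898 and 2622 in those of SUM44. The window held 1.47% and 1.65% of the near cis contacts of GM06990, those within 5 Mb outside the captured region. Its share was 0.937% and 0.761% in BT483 and 0.687% and 0.695% in SUM44, so that both GM06990 replicates lay above all 4 breast replicates. Near cis totals at 8q24.21 ran from 87714 in the first BT483 replicate to 422044 in the first SUM44 replicate, so the first BT483 replicate is the least precise. Trans contacts of the captured fragments were 306342 and 630311 in GM06990, 419176 and 1428113 in BT483, and 453190 and 455813 in SUM44. Their balance with near cis contacts thus differed between libraries, and its effect on the background was not tested. Libraries were amplified without molecular identifiers, so intervals cover counting error only.

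Counts fall with distance, so each was set against the count expected from the distance of the pair and the trans contacts of the captured fragment, fitted in each replicate to every pair within 5 Mb on both sides. The ratio of observed to expected contacts of the window was 2.73 and 3.04 in the replicates of GM06990, with a mean of 2.88 ± 0.219 (SD, n = 2). It was 2.29 and 1.92 in BT483, 2.11 ± 0.257 (SD, n = 2). It was 1.62 and 1.63 in SUM44, 1.63 ± 0.00358 (SD, n = 2). The order was GM06990, BT483, SUM44, and no replicate of a line overlapped those of another.

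How far the window stood above expectation depended on what it was set against. Against targets within 10% of the same distance, counted per fragment, the mean ratio was 2.22 ± 0.314 in GM06990, 1.61 ± 0.110 in BT483 and 1.28 ± 0.0272 in SUM44 (SD, n = 2). Counted per kb, it was 1.38 ± 0.209 in GM06990, 1.01 ± 0.0689 in BT483 and 0.792 ± 0.0172 in SUM44. Per kb of sequence, the window thus stood above distance-matched targets in both GM06990 replicates, on either side of them in BT483 and below them in SUM44. The order of the lines was the same by each measure.

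The sides of the captured region were unequal, most of all in GM06990, a difference between lines that was not tested. The window at the same distance on the centromeric side, from 127600000 to 127620000, had a ratio of 0.371 in GM06990, 0.579 in BT483 and 0.697 in SUM44 with replicates summed. With the background fitted to the telomeric side alone, the MYC window had a ratio of 1.80 in GM06990, 1.53 in BT483 and 1.43 in SUM44. Against the telomeric side alone the lines thus lay closer together, in the same order.

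Along the telomeric side the MYC window was a local peak in GM06990, level with the window before it in BT483 and below that window in SUM44. Among 500 windows within 5 Mb on both sides it ranked 1 in GM06990, 12 in BT483 and 51 in SUM44 by this ratio, with replicates summed. Of the 64 windows between the captured region and 1 Mb past the MYC window, it ranked 1 in both GM06990 replicates, 3 and 2 in BT483, and 8 and 6 in SUM44, and with replicates summed 1, 1 and 6. The median ratio of these 64 windows was 1.60 in GM06990, 1.17 in BT483 and 0.903 in SUM44. The window before it, from 128720000 to 128740000, had 1.92 in GM06990, 1.99 in BT483 and 1.85 in SUM44, with the MYC window at 2.91, 2.00 and 1.64. The window after it, from 128760000 to 128780000, had 2.12, 1.35 and 1.15 in the same order of lines. These windows share an edge fragment with the MYC window, so they are not separate measurements. In the 13 windows between the captured region and MYC, none exceeded the MYC window in GM06990 or BT483, and 4 did in SUM44. Beyond MYC the ratio fell in all lines and rose again near the far end of this stretch. In GM06990 it also reached 2.35 between, in the window from 129180000 to 129200000. The window from 129680000 to 129700000 had 1.90 in SUM44, the highest of its 64 and above MYC, 1.62 in BT483 and 1.56 in GM06990. In GM06990 the window from 129620000 to 129640000 had 0.877.

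**Figure D1:**
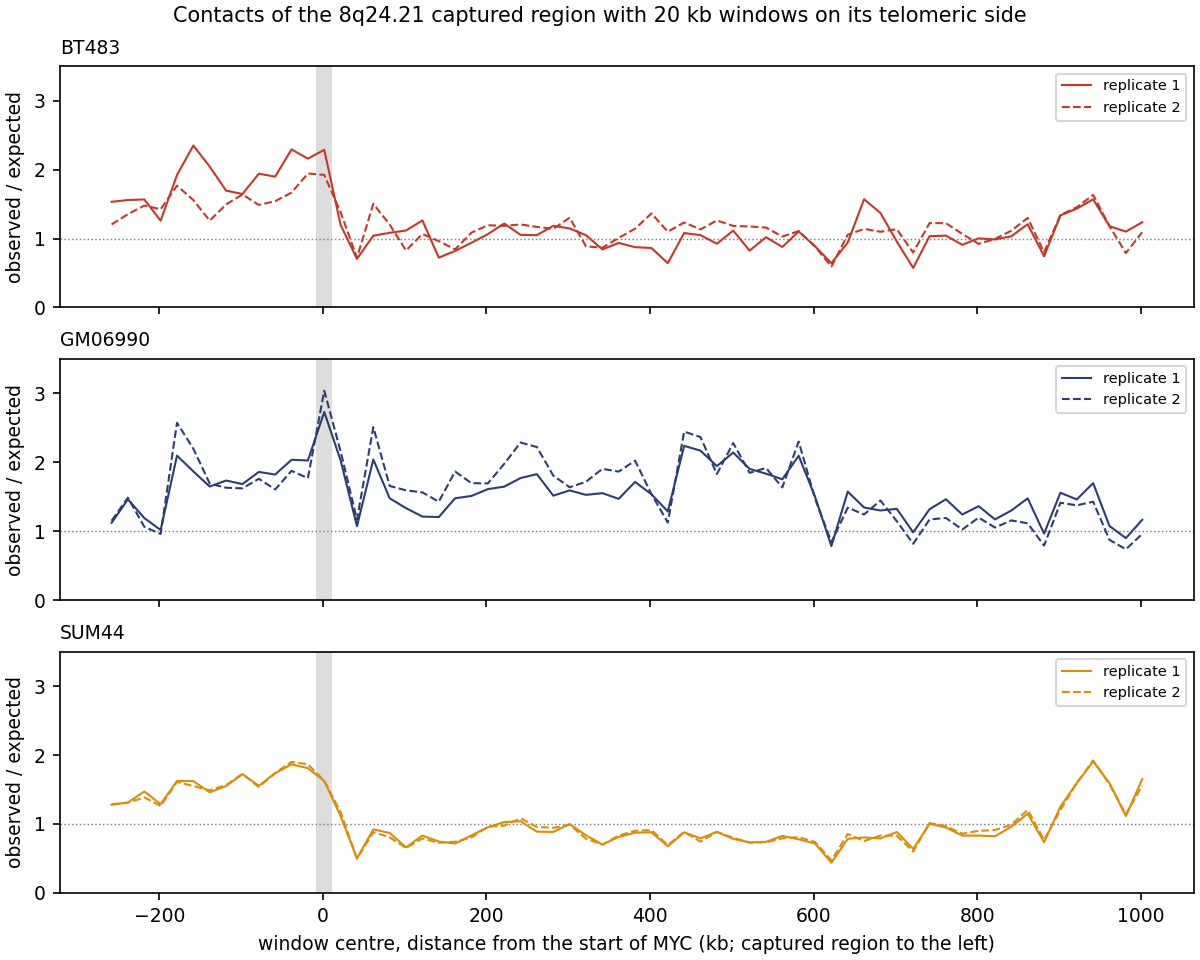
Ratio of observed to expected contacts of the captured region with each 20 kb window on its telomeric side, by distance of the window centre from the start of MYC in kb, with a panel per line and a line per replicate; the grey band is the MYC window and the dotted line a ratio of 1. In GM06990 the MYC window is the highest point (2.73 and 3.04). In all lines the ratio falls beyond the MYC window and rises again near 1 Mb. There it is 1.90 in SUM44, 1.62 in BT483 and 1.56 in GM06990 with replicates summed.

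The window was lower in both breast lines than in GM06990 when tested over all 1474 windows of the 3 risk loci with edgeR's quasi-likelihood test and the distance background as offset. The log2 difference of BT483 from GM06990 was -0.46 (SE 0.115, adjusted p = 0.0161). That of SUM44 from GM06990 was -0.83 (SE 0.114, adjusted p = 0.000298). Over all windows, 9.7% were called lower in BT483 and 25.2% in SUM44, and 10.4% and 19.9% were called higher, so a call of this kind is common. BT483 and SUM44 differed by 0.37 (SE 0.114, edgeR adjusted p = 0.0917), a difference that did not pass, beside 1.49% of windows called higher and 0.136% called lower; it passed, at 0.49, without the second BT483 replicate. Both breast lines were set against the same GM06990 libraries, so their differences from it are not independent.

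The call of BT483 rested on the background. With the telomeric side alone, BT483 differed by -0.17 (edgeR adjusted p = 0.275, beside 10.5% of windows called lower) and SUM44 by -0.33 (adjusted p = 0.0236, beside 26.1%). Scaled to the contacts with the other windows up to 1 Mb past MYC, a setting chosen after seeing the data, BT483 differed by -0.17 (edgeR adjusted p = 0.357) and SUM44 by -0.38 (adjusted p = 0.0257). In that fit 31.2% of the 64 windows were called lower in BT483 and 51.6% in SUM44, and the median window differed by -0.11 and -0.32. The SUM44 difference of the MYC window is thus 0.06 from the median of its neighbourhood on the log2 scale, less than its standard error of 0.157. The BT483 call was also lost without either GM06990 replicate (edgeR adjusted p up to 0.130) and without either SUM44 replicate (up to 0.0547).

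The difference between lines was uneven within the window, larger at the gene and downstream of it than upstream. Fragment 3, with the gene, had a ratio of 3.60 and 4.22 in GM06990, 2.95 and 2.15 in BT483, and 1.70 and 1.63 in SUM44, with no overlap between lines. Fragment 2, next upstream, had 3.07 and 3.70 in GM06990, 3.67 and 2.64 in BT483, and 2.21 and 2.13 in SUM44, so BT483 and GM06990 overlapped there. Fragment 1 had 2.76 and 2.58 in GM06990, 2.24 and 2.09 in BT483, and 2.00 and 2.04 in SUM44. Fragment 1 thus kept the order of the lines with smaller gaps. The downstream fragment 4 had 2.00 and 2.14 in GM06990, 1.39 and 1.32 in BT483, and 0.992 and 1.09 in SUM44. Fragment 5 had 2.19 and 2.54 in GM06990, 1.13 and 1.40 in BT483, and 1.19 and 1.23 in SUM44, where the breast lines overlapped. In GM06990 the fragment with the gene had the highest ratio of the 5, and in both breast lines the upstream fragment 2 did.

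**Figure D2:**
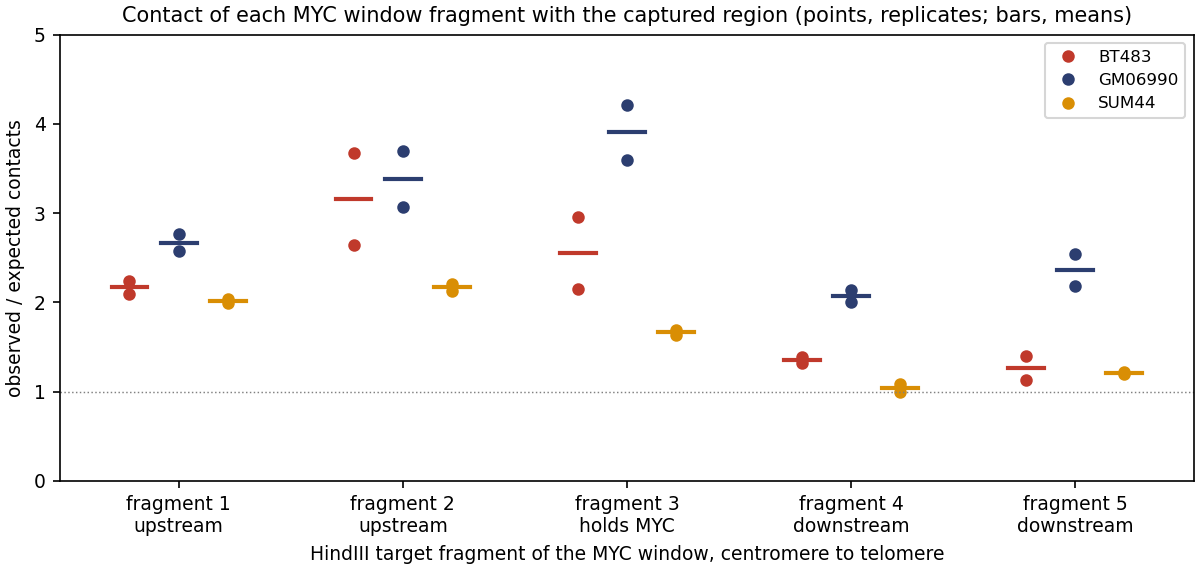
Ratio of observed to expected contacts of each of the 5 target fragments of the MYC window with the captured region; points are replicates, bars their means (n = 2 per line), and the dotted line marks a ratio of 1. Fragment 3 with the gene is highest in GM06990 (3.60 and 4.22), and fragment 2 is highest in BT483 and SUM44.

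By edgeR over 5466 target fragments of the 3 risk loci, 3 of the 5 fragments were lower in BT483 than in GM06990 and none was higher, beside 5.16% of all fragments called lower and 7.72% called higher. In SUM44 4 of the 5 were lower and none was higher, beside 10.8% and 15.8%. No fragment was higher in either breast line at an unadjusted p of 0.05 or by DESeq2. Fragment 3 had a difference of -0.65 in BT483 (SE 0.170, adjusted p = 0.0175). Its difference in SUM44 was -1.23 (SE 0.167, edgeR adjusted p = 3.90e-05). Fragment 4 differed by -0.62 and -0.99, and fragment 5 by -0.87 and -0.97, and all 4 of these differences passed. Fragment 2 differed by -0.13 in BT483 (edgeR adjusted p = 0.680), which did not pass. In SUM44 fragment 2 differed by -0.64 (edgeR adjusted p = 0.00760). Fragment 1 passed in neither line, at -0.31 (edgeR adjusted p = 0.205) and -0.40 (adjusted p = 0.0504). Target fragments were not tested with the telomeric side or the neighbourhood as background. How these calls move with the background is thus not known. The number lower in BT483 was 1 without the second BT483 replicate, without the second GM06990 replicate, or without either SUM44 replicate, which enters the shared spread. Between BT483 and SUM44 none of the 5 passed by edgeR or DESeq2, with 3 at an unadjusted p of 0.05, beside 0.0732% of fragments called higher and 0.201% called lower. Without the second BT483 replicate 2 of the 5 were higher in BT483 than in SUM44.

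Neighbouring fragments of a library share the captured fragments, the depth and nearly the distance, so their ratio needs no distance background. The gene fragment had 574 and 627 contacts in the replicates of GM06990, and the upstream fragment 498 and 560. In BT483 the gene fragment had 212 and 701, and the upstream fragment 267 and 869. In SUM44 the gene fragment had 605 and 525, and the upstream fragment 797 and 694. The gene fragment thus held more contacts than its upstream neighbour in GM06990 and fewer in the breast lines. Their ratio was 1.15 and 1.12 in GM06990, 0.794 and 0.807 in BT483, and 0.759 and 0.756 in SUM44, and all 4 breast replicates lay below both GM06990 replicates. The ratio has the length of the fragments in it, so only its difference between lines is read here.

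**Figure D3:**
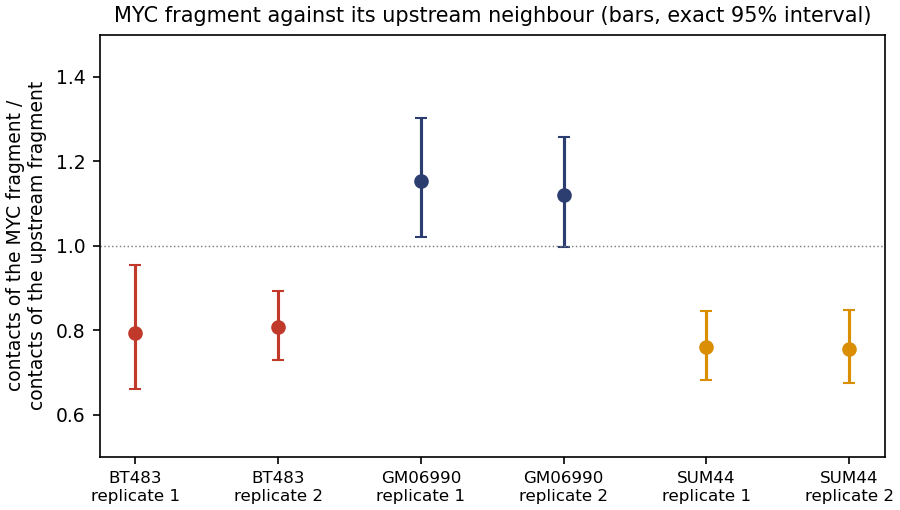
Contacts of the fragment that holds MYC divided by contacts of the upstream fragment, for each replicate, with exact 95% intervals that cover counting error only; the dotted line marks equal counts. The GM06990 replicates are at 1.15 and 1.12, and the 4 breast replicates lie between 0.756 and 0.807.

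The ratio of adjacent fragments was tested with limma over 4954 adjacent pairs of the 3 risk loci, a test added after the values were seen, and all 4 adjacent pairs of the window are given. The ratio of the gene fragment to the upstream fragment differed from GM06990 by -0.50 in BT483 (SE 0.0823, limma adjusted p = 0.00112). The same ratio in SUM44 differed by -0.58 (SE 0.0776, limma adjusted p = 0.000173). Over all adjacent pairs 2.38% were called lower in BT483 and 2.58% in SUM44, and 2.52% and 2.5% were called higher. None of the other 3 adjacent pairs passed in either line, with 0 of them in BT483 and 2 in SUM44 at an unadjusted p of 0.05. BT483 and SUM44 differed in this ratio by 0.08 (limma adjusted p = 1.00), and none of the 4 pairs passed, beside 0.0606% called higher and 0.0404% called lower. Without the second BT483 replicate the BT483 difference was -0.51 and did not pass (limma adjusted p = 0.181).

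The captured region was cut into 6 equal segments, numbered from the centromeric end to the end nearest MYC. In GM06990 the window's contacts came mainly from segments 4 (128182973 to 128276015) and 5 (128276016 to 128373175), which supplied 26.1% ± 3.06 and 27.2% ± 1.12 of them (SD, n = 2). Those segments supplied 19.9% ± 1.82 and 17.7% ± 1.17 in BT483, and 16.0% ± 1.26 and 16.8% ± 0.318 in SUM44. In SUM44 the largest share came from segment 2 (127981952 to 128081275), with 21.3% ± 0.442, against 8.35% ± 0.382 in GM06990. Segment shares depend on the capture efficiency and distance of each segment. The ratio to expected accounts for these only through distance and trans contacts. A level that a captured fragment shares over the whole telomeric side stays in that ratio.

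Segment 4 had a ratio to expected of 4.25 and 5.66 in GM06990, 2.97 and 2.29 in BT483, and 1.62 and 1.76 in SUM44. Segment 5 had 3.20 and 3.94 in GM06990, 1.73 and 1.68 in BT483, and 1.27 and 1.31 in SUM44. In both segments the lines did not overlap. Segment 1 (127886760 to 127981951), the farthest from MYC, was high in all lines, at 2.90 and 2.95 in GM06990, 3.71 and 3.06 in BT483, and 2.61 and 2.39 in SUM44. It was the segment with the highest mean ratio in both breast lines. Segment 2 had 1.49 and 1.54 in GM06990, 1.55 and 1.79 in BT483, and 1.76 and 1.75 in SUM44. Segment 3 had 3.03 and 2.54 in GM06990, 2.42 and 1.73 in BT483, and 1.54 and 1.32 in SUM44. Segment 6, the nearest to MYC, had 1.95 and 1.90 in GM06990, 2.07 and 1.44 in BT483, and 1.38 and 1.52 in SUM44. The lines lay closer together in segments 2 and 6 than in segments 4 and 5.

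By edgeR over 2704 pairs of segment and window, 2 of the 6 segments were lower in BT483, beside 9.02% of all pairs called lower and 15.1% called higher (13.3% and 9.84% with near cis totals and TMM factors). Segment 4 differed by -0.94 (SE 0.182, adjusted p = 0.000188) and segment 5 by -1.07 (SE 0.174, adjusted p = 1.89e-05). In SUM44 3 of the 6 were lower, beside 16.3% of pairs called lower and 20.4% called higher. Segment 3 differed by -0.96 (edgeR adjusted p = 0.000112), segment 4 by -1.55 (adjusted p = 6.29e-09) and segment 5 by -1.47 (adjusted p = 6.87e-09). No segment was higher in either breast line, by DESeq2 or at an unadjusted p of 0.05. Segments 1, 2 and 6 differed by 0.19, 0.16 and -0.17 in BT483 and by -0.23, 0.21 and -0.40 in SUM44, and none of these passed. Between BT483 and SUM44 no segment passed by edgeR or DESeq2, with 4 at an unadjusted p of 0.05, beside 0.518% of pairs called in each direction. Without the second BT483 replicate, or without either GM06990 replicate, 1 segment was higher in BT483 than in SUM44.

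With the telomeric side alone as background, a setting chosen after seeing the data, segments 4 and 5 remained lower in BT483, at -0.61 and -0.76, and in SUM44, at -0.99 and -0.94. In that fit 9.44% of pairs were called lower in BT483 and 18.7% in SUM44. Segment 3 no longer passed in SUM44, and segment 2 was higher there by 0.71 (SE 0.181, edgeR adjusted p = 0.00206), beside 17.2% of pairs called higher. In BT483 segments 1 and 2 differed by 0.49 and 0.48 (edgeR adjusted p = 0.0556 and 0.0662). These did not pass, at an unadjusted p of 0.0128 and 0.0160. With each segment scaled to its own contacts with the windows up to 1 Mb past MYC, also chosen after seeing the data, only segment 5 passed in BT483, at -0.43 (edgeR adjusted p = 0.0260). Segments 3, 4 and 5 passed in SUM44, at -0.48, -0.55 and -0.61. In that fit the median pair differed by -0.20 in BT483 and -0.32 in SUM44, and 27.9% and 46.4% of pairs were called lower.

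**Figure D4:**
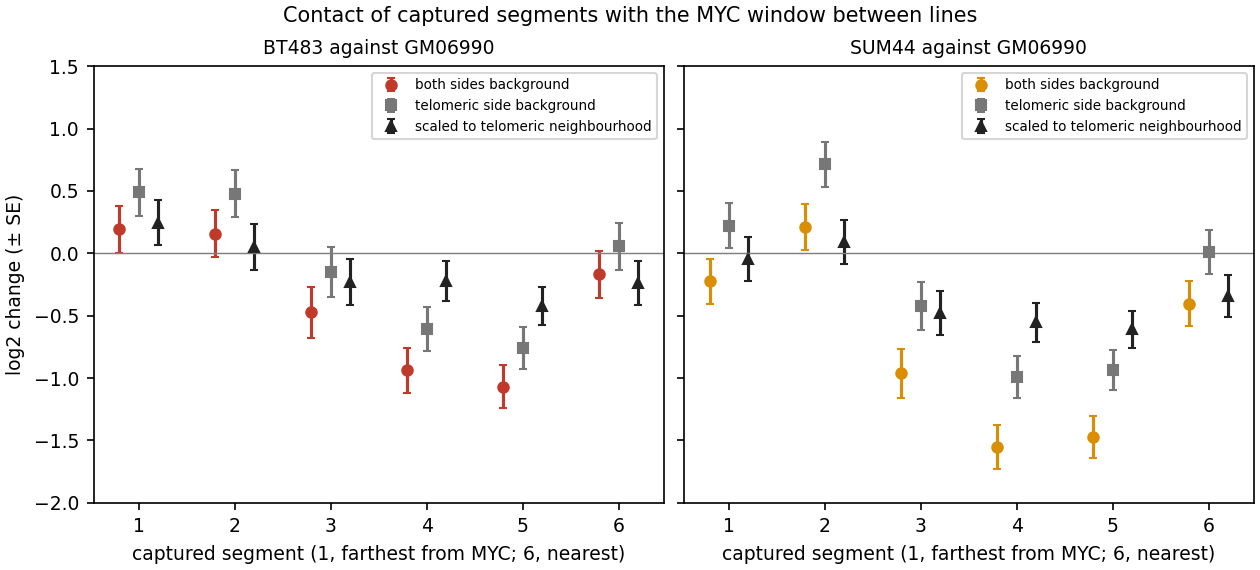
Log2 difference of each breast line from GM06990 in the contacts of the 6 captured segments with the MYC window, with standard errors (n = 2 per line), on 3 backgrounds. Segments 4 and 5 are the lowest on the both-sided background (BT483 -0.94 and -1.07, SUM44 -1.55 and -1.47) and lie closer to 0 when scaled to the telomeric neighbourhood.

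Whether the differences between lines were unequal within the captured region was tested with limma on the ratio of segments 4 to 6 over segments 1 to 3 in 497 windows, a test added after the values were seen. For the MYC window this ratio of ratios was 1.26 and 1.59 in GM06990, 0.904 and 0.842 in BT483, and 0.734 and 0.845 in SUM44. The GM06990 replicates were above 1 and the breast replicates below it. It differed from GM06990 by -0.72 in BT483 (limma adjusted p = 3.70e-09), while SUM44 differed by -0.85 (limma adjusted p = 3.11e-13). Over all windows 17.3% were called lower in BT483 and 25.8% in SUM44, and 22.7% and 30.0% called higher. The MYC window passed in both lines with any replicate left out, at -0.89 to -0.56 in BT483 and -1.01 to -0.68 in SUM44. The balance over all windows turned with the GM06990 replicates. For BT483 66 windows were called higher and 117 lower without the first, and 138 and 53 without the second. For SUM44 these numbers were 84 and 141, and 171 and 87. Without the second BT483 replicate 46 were higher and 30 lower in BT483. BT483 and SUM44 differed by 0.12 (limma adjusted p = 0.979), beside 0.201% called higher and 0.0% called lower. This test was run on the both-sided background alone. It was not run with the telomeric side or the neighbourhood as background, so how it moves with the background is not known.

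At the level of single captured fragments, the window had a median of 17 contacts per fragment in GM06990, 18 in BT483 and 26 in SUM44, with replicates summed. At least 20 contacts were reached by 84 of the 192 captured fragments in GM06990, 92 in BT483 and 124 in SUM44. Among these the highest ratio to expected was 13.8 in GM06990, 8.69 in BT483 and 6.02 in SUM44. In GM06990 the highest 5 fell in 3 places of the captured region, and 4 of the highest 5 of BT483 and of SUM44 lay side by side at its centromeric end. The places below were picked by these ratios, which favours a high value in the line that picked them.

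The first place in GM06990 is a pair of adjacent captured fragments in segment 4. The fragment from 128192178 to 128201573, 551 kb from the start of MYC, had 36 and 38 contacts in GM06990, 15 and 24 in BT483, and 21 and 21 in SUM44. Its ratio to expected was 13.8 in GM06990 (exact 95% interval 10.8 to 17.3), 3.48 in BT483 (2.47 to 4.75) and 2.85 in SUM44 (2.06 to 3.86). Its neighbour from 128189518 to 128192177 had a ratio of 12.6 in GM06990, 3.73 in BT483 and 3.17 in SUM44. Both stood above expectation in all lines, and most in GM06990, the line whose ratios picked them.

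The second place lies in segment 5. The captured fragment from 128314311 to 128319325, 431 kb from the start of MYC, had 83 and 93 contacts with the window in GM06990, 12 and 31 in BT483, and 20 and 18 in SUM44. The 176 contacts in GM06990 are the most of any captured fragment in that line. Its ratio was 12.9 in GM06990 (exact 95% interval 11.1 to 15.0), 2.30 in BT483 (1.67 to 3.10) and 1.48 in SUM44 (1.05 to 2.03). The fragment from 128313238 to 128313880, nearly next to it, had a ratio of 9.49 in GM06990, 1.12 in BT483 and 1.30 in SUM44. In the breast lines the intervals of this last fragment include 1.

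The third place is the centromeric end of the captured region, the farthest from MYC. The captured fragment from 127886760 to 127889453, 860 kb from the start of MYC, had 19 and 23 contacts in GM06990, 6 and 49 in BT483, and 25 and 32 in SUM44. Its ratio was 12.1 in GM06990 (exact 95% interval 8.75 to 16.4), 8.69 in BT483 (6.55 to 11.3) and 6.02 in SUM44 (4.56 to 7.79). It was the only captured fragment among the highest 5 in all 3 lines. The next fragments, 127889454 to 127891696, 127891697 to 127895194 and 127895195 to 127897477, had ratios of 7.07, 5.11 and 5.18 in BT483, 4.64, 5.23 and 3.36 in SUM44, and 6.75, 4.33 and 4.35 in GM06990. The first of these 3 had 16.2 in the first BT483 replicate, on 33 contacts, and 5.49 in the second, on 65. The 5 were completed in BT483 by the fragment from 127919004 to 127919284, at 5.19, and in SUM44 by that from 127949613 to 127958932, at 3.38.

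**Figure D5:**
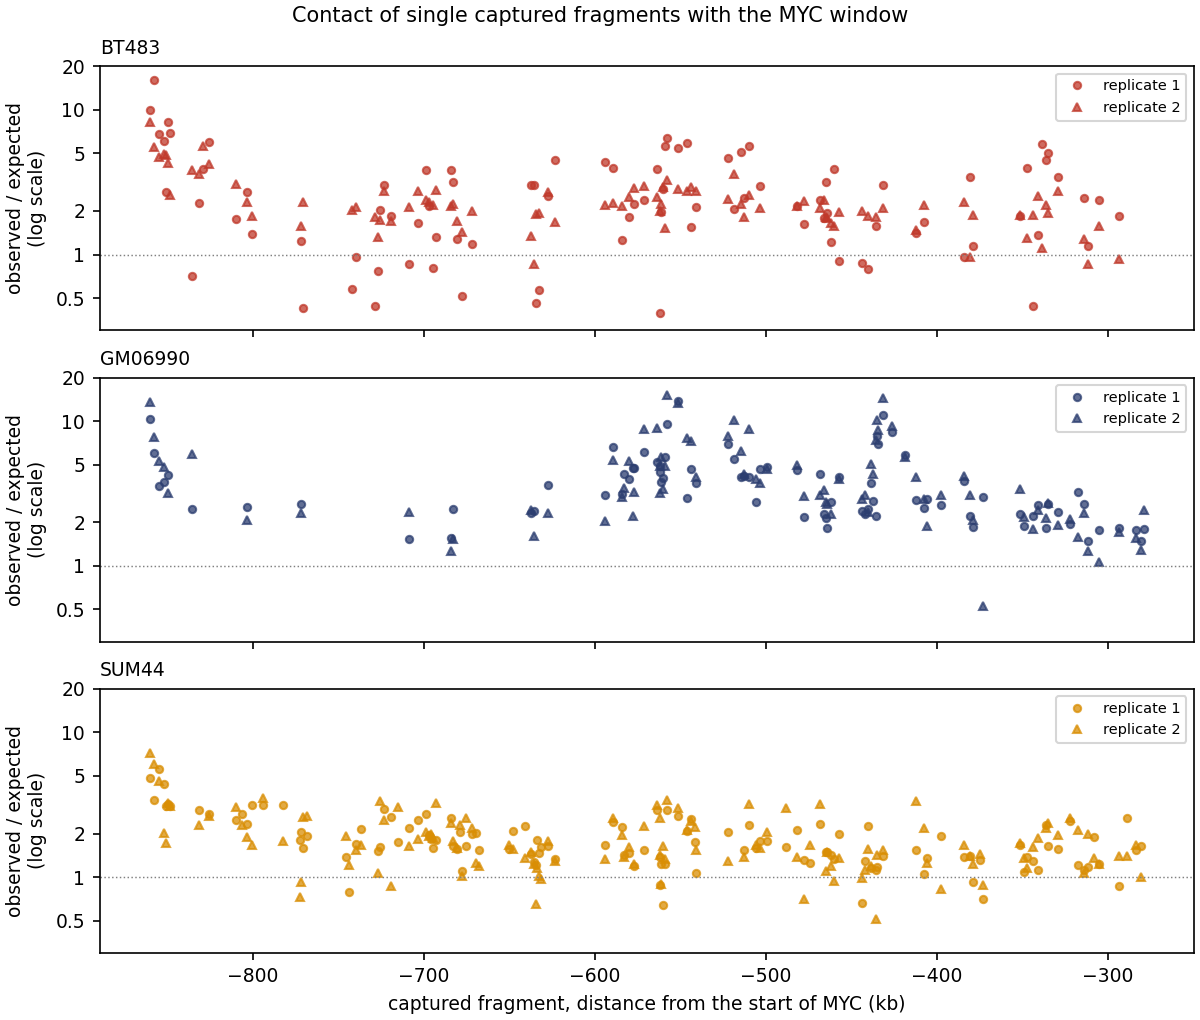
Ratio of observed to expected contacts (log axis) of single captured fragments with the MYC window, by distance from the start of MYC in kb; points are replicates of fragments with at least 20 contacts in that line, replicates summed (84 in GM06990, 92 in BT483, 124 in SUM44), and the dotted line marks a ratio of 1. All lines are high at the far left, and GM06990 has further groups of points above 10 near 551 and 431 kb.

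Few single pairs of captured and target fragment stood above the distance background of their line at an adjusted p of at most 0.01 with at least 5 contacts. In GM06990 3 of the 960 pairs of the window were called, beside 0.00429% of all pairs at 8q24.21. All 3 joined the fragment with the gene, with 56 contacts to the captured fragment from 128314311 to 128319325 (20.6 times expected), 32 to that from 128189518 (18.5 times) and 22 to that from 128192178 (20.5 times). In BT483 3 pairs were called too, beside 0.00137% of all pairs, all from the centromeric end. The captured fragment from 127889454 had 32 contacts with the upstream fragment 2 (11.5 times expected) and 26 with the gene fragment (9.38 times). The first replicate, with 87714 near cis contacts against 413006 in the second, gave 15 of the 32 and 9 of the 26. That from 127886760 had 16 with the gene fragment (12.7 times), of which 2 came from the first replicate. In SUM44 none was called by the negative binomial background, beside 0.000687% of all pairs, with 26 called by a Poisson background, or 2.71% of the 960 against 0.199% of all pairs. In SUM44 119 of the 960 pairs, or 12.4%, had at least 5 contacts and an unadjusted p below 0.05, against 1.89% of all pairs. In BT483 169 of the 960 pairs and in GM06990 209 met the same limits, or 17.6% and 21.8%, against 1.07% and 0.745% of all pairs of those lines. All pairs reach to 5 Mb outside the captured region, while those of the window are at most 873.221 kb apart. Fewer of all pairs can thus reach 5 contacts, and the shares of this paragraph are not matched for distance. Without its second replicate GM06990 had 0 calls, and BT483 had 0 without its first and 1 without its second.

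A pair called in a line was not absent from the others. The 3 pairs called in GM06990 were at 3.22, 5.02 and 6.24 times expected in BT483, with 12, 18 and 14 contacts, and at 1.76, 3.22 and 2.38 times in SUM44, with 9, 16 and 7. The 3 pairs called in BT483 were at 7.50 to 11.6 times expected in GM06990, on 8 to 17 contacts, and at 4.54 to 9.50 times in SUM44, on 17 to 29. The lines differ in depth and in spread about the background, and single pairs were not tested between lines.

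Of the 192 captured fragments, 139 had at least 20 contacts with the window in a line and were tested between lines by edgeR over 14073 pairs of captured fragment and window. Of these, 6 reached that number in GM06990 only, so that they entered the test through the line where they were high. In BT483 8 were lower than in GM06990, beside 1.98% of all pairs called lower, and none was higher by edgeR, by DESeq2 or at an unadjusted p of 0.05, beside 0.803% called higher. Without the 6, the number lower was 6 of 133 in BT483 and 31 of 133 in SUM44. The 8 in BT483 lay in segments 4 and 5, between 128182973 and 128325587. In SUM44 36 were lower, beside 5.54% of pairs called lower, with 6, 17, 12 and 1 of them in segments 3, 4, 5 and 6. None was higher in SUM44 by edgeR or DESeq2, with 2 at an unadjusted p of 0.05, beside 6.64% of pairs called higher. With near cis totals and TMM factors 10.6% of pairs were called lower and 3.20% higher in SUM44. Without the second BT483 or the second GM06990 replicate 2 and 3 captured fragments were lower in BT483. Without either GM06990 replicate 20 and 11 were lower in SUM44, and without either SUM44 replicate 16 and 18. Between the breast lines none passed by edgeR or DESeq2, with 19 at an unadjusted p of 0.05, beside 0.0% of pairs called in either direction.

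The largest differences clustered around the second place. That place had been picked by its ratios in GM06990, which favours lower values in the breast lines. The captured fragment from 128314311 to 128319325 differed by -2.42 in BT483 (SE 0.314, edgeR adjusted p = 3.52e-11). For SUM44 its difference was -3.11 (SE 0.309, edgeR adjusted p = 3.69e-20). Its near neighbour from 128313238 differed by -2.95 and -2.76, and that from 128313881 to 128314310 by -2.35 and -2.93, all of which passed. The fragment from 128313881 had 1 and 9 contacts in BT483, 13 and 18 in GM06990, and 5 and 9 in SUM44. This fragment and that from 128319326 were among the 6 that entered the test through GM06990 only. The fragment from 128319326 to 128325587 differed by -2.49 in BT483 on 4 and 6 contacts against 23 and 24, and that from 128192178 by -1.89. In SUM44 the 5 largest were completed by the fragments from 128233031 to 128235179, at -2.68, and from 128312287 to 128313237, at -2.49.

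For the captured fragments of the called pairs, the contacts with the 64 windows of the telomeric neighbourhood were also taken, and their median ratio was highest in GM06990. The fragment from 128314311 to 128319325 had a median ratio over the 64 windows of 4.78 in GM06990, 1.37 in BT483 and 1.17 in SUM44. Its ratio with the MYC window ranked 2 of the 64 in GM06990, behind the window from 128560000 to 128580000 at 13.0, and ranked 2 in BT483 and 21 in SUM44. The fragment from 128189518 to 128192177 had a median of 4.76, 1.44 and 1.29 in the same order, with MYC at rank 1, 1 and 2. That from 128192178 to 128201573 had 4.99, 1.92 and 1.58, with MYC at rank 1, 2 and 9. The centromeric fragment from 127886760 to 127889453 had medians of 4.73, 2.76 and 2.49, and the MYC window ranked 1 in all 3 lines. Its neighbour from 127889454 had 3.25, 2.35 and 2.30, with MYC at rank 1, 1 and 2.

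Scaled to each captured fragment's own contacts with that neighbourhood, a setting chosen after seeing the data, no captured fragment passed in BT483, beside 0.243% of pairs called lower, and 5 were lower in SUM44, beside 1.96%. For the fragment from 128314311 to 128319325 the difference became -0.55 in BT483 (edgeR adjusted p = 0.344) and -1.25 in SUM44 (adjusted p = 0.00264). With the telomeric side alone as background, also chosen after seeing the data, 6 were lower in BT483, beside 2.01% of pairs. In SUM44 15 were lower and 3 higher, beside 4.56% and 7.33%.

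The profile of the window along the 192 captured fragments was most repeatable in GM06990. As a description, the log2 ratios to expected correlated between replicates with a Pearson r of 0.705 in GM06990, 0.459 in SUM44 and 0.308 in BT483, over 192 captured fragments that share library, depth and neighbours. Between lines r ran from 0.298 to 0.417 for BT483 with GM06990, from 0.284 to 0.433 for BT483 with SUM44, and from 0.175 to 0.305 for GM06990 with SUM44. Over the 6 segments the replicates of each line correlated at 0.806 to 0.951, BT483 with SUM44 at 0.630 to 0.873, BT483 with GM06990 at 0.416 to 0.601, and GM06990 with SUM44 at -0.08 to 0.005. The range for BT483 with SUM44 includes the value between the BT483 replicates, 0.806. Depth differed too, since the window had 822 and 3141 contacts in the BT483 replicates and 2181 and 2265 in those of GM06990. Few contacts can lower r, and the part of depth was not tested. With 5 rather than 1 added to counts, replicate r over captured fragments was 0.783 in GM06990, 0.555 in SUM44 and 0.407 in BT483.

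The windows at least 100 kb away whose profile was most like that of the MYC window all lay between the captured region and MYC. They start at 128560000, 128620000, 128500000, 128540000 and 128520000, with a mean r over the 3 lines of 0.687, 0.658, 0.622, 0.621 and 0.609. The median over 489 windows, most of them farther away with fewer contacts, which can lower r, was 0.115. The likeness of the first was 0.797 in GM06990, 0.657 in SUM44 and 0.607 in BT483.

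A readout outside the rule is the contact of the 5 other captured regions, on other chromosomes, with the 50 kb windows that hold MYC. Such trans contacts rise with the copy number and the accessibility of a window, which were not told apart. Relative to the median window of chromosome 8, they were 1.09 and 1.18 in GM06990, 0.944 and 1.68 in BT483, and 1.63 and 1.58 in SUM44. SUM44, with the lowest cis ratio at MYC, thus had both replicates above those of GM06990, while the replicates of BT483 spanned them. Neighbouring windows were the 13 other 50 kb windows close to MYC outside the captured region. Their median was 1.19 ± 0.0576 in GM06990, 1.34 ± 0.479 in BT483 and 1.53 ± 0.247 in SUM44 (SD, n = 2). The MYC value averages unlike windows. That from 128700001 to 128750000, with the start of the gene, had 1.63 ± 0.315 in GM06990, 1.90 ± 0.905 in BT483 and 2.35 ± 0.141 in SUM44. The BT483 replicates there, at 1.26 and 2.54, lay on either side of those of the other lines. That from 128750001 to 128800000 had 0.636 ± 0.193, 0.723 ± 0.131 and 0.850 ± 0.0707. Over the chromosome beyond 100 Mb the median window had 1.01 in GM06990, 1.28 in BT483 and 1.45 in SUM44. The part of copy number in the cis differences was not tested. With the trans level relative to the chromosome 8 median subtracted, the differences from GM06990 were -0.67 in BT483 and -1.32 in SUM44 (log2, no test). The cis background was fitted within 5 Mb. Trans levels in the neighbouring windows were close to those of MYC, but they were not taken over the whole 5 Mb. The MYC windows had a mean of 1.13 in GM06990, 1.31 in BT483 and 1.60 in SUM44, beside the neighbours given above. The subtraction may thus remove a level that the background already holds, which was not tested. Its values are therefore not read as corrected differences. Subtraction relative to the neighbouring windows was not tested. The BT483 value was -0.20 with the trans level of its first replicate and -1.03 with that of its second, on either side of the -0.46 without subtraction, and the SUM44 values were -1.35 and -1.30.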

How the data were processed

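The deposited values are raw counts of read pairs for each captured and target HindIII fragment, with 1 count column per replicate and 1 sample per line. CASAVA 1.8 and the build GRCh37 (hg19) are named per the submitters' processing notes. The aligner was not given in the sources used here. Nothing was normalized before deposit as far as the values show, since they are whole numbers with different totals.

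Target fragments within 5 Mb outside the captured region of chromosome 8 were used. Expected counts came from a negative binomial regression of each pair's count on a cubic spline of log10 distance (4 knots) and on the captured fragment's log trans contacts, per replicate for ratios and per line, replicates summed, for calls. Target fragments, 20 kb windows and pairs with segments needed at least 50 contacts in a line, and pairs with single captured fragments 20. Between lines, edgeR 4.0.16 (quasi-likelihood, offsets of log expected counts) was adjusted by Benjamini-Hochberg over all rows at 0.05, with all 6 replicate columns in 1 fit. DESeq2 1.42.0 used the same counts and offsets. limma 3.58.1 tested ratios on log2(count + 1). Python 3.11.15 and R 4.3.3 were used. Tests were checked on simulated counts. In the pairs of captured fragment and window, increases in BT483 were simulated against GM06990 over 14073 pairs. Of these, 1 of 100 of 2-fold and 55 of 100 of 4-fold were recovered.

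All 5 target fragments and 6 segments are named, with per line the 5 captured fragments with the highest ratio among those with at least 20 contacts, per contrast up to 5 in each direction, and the 5 windows most like MYC. Fragments called as pairs are named too. Members, lists and tests were chosen with earlier results of these data known. Alternatives were another scaling (TMM), DESeq2, no filter, each replicate left out, a replicate block, and other backgrounds. Intervals are exact Poisson for counts and exact binomial for shares and ratios of counts, at 95%. Contacts within the captured region were not used. No sequence is shown, and no GRCh37 annotation was used beyond the position of MYC.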

Additional observations from a re-analysis of the deposited data

How the results depend on the processing

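The log2 difference of the MYC window from GM06990 was negative for BT483 and SUM44 under every setting run, and SUM44 passed under each tested one. The BT483 difference lost its call with near cis totals and TMM factors (-0.50), with the telomeric side alone (-0.17) and scaled to the telomeric neighbourhood (-0.17). Leaving out 1 replicate moved it between -0.58 and -0.33. Scaled to the telomeric neighbourhood the SUM44 difference was -0.38, beside -0.32 for the median window and 51.6% of the 64 windows called lower. Less the trans level of the window the differences were -0.67, -1.32 and 0.65 (BT483 and SUM44 from GM06990, and BT483 from SUM44). That level is relative to the chromosome 8 median, and the background may already hold part of it. Without this subtraction, the difference of BT483 from SUM44 ranged over left-out replicates from 0.24 to 0.49. The replicate numbers did not pair the samples, since deviations of equal numbers correlated between -0.07 and 0.06. With the replicate number as a block the window differed by -0.46 and -0.83, with edgeR adjusted p = 0.0246 and 0.000386, and 0.37 between the breast lines (adjusted p = 0.130). The cause of these changes was not tested.

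Fragments of the window lower in BT483 numbered 1 to 3 with a replicate left out, and 0 to 2 were higher in BT483 than in SUM44. With TMM factors 4 segments were lower in BT483 and 5 in SUM44, beside 13.3% and 17.4% of all pairs. Scaled to the neighbourhood 1 was lower in BT483, and with the telomeric side alone 1 was higher in SUM44. With a replicate left out 0 to 1 segments were higher in BT483 than in SUM44. Captured fragments lower in BT483 were 31 with TMM factors, 4 with DESeq2, 5 without a filter (beside 3.97%, 0.583% and 0.176% of all pairs), 0 scaled to the neighbourhood, and 2 to 12 with a replicate left out. Those lower in SUM44 were 66, 14, 23 (beside 10.6%, 1.70% and 0.554%) and 5 in the same order, 15 with the telomeric side alone and 11 to 40 with a replicate left out. Those higher in SUM44 were 3 with the telomeric side alone and 0 to 1 with a replicate left out, and 0 to 1 were higher in BT483 than in SUM44. The ratio of fragment 2 to fragment 1 passed in SUM44 at -0.41 without the first GM06990 replicate (range over left-out replicates -0.41 to -0.041). That of the gene fragment to fragment 2 ran from -0.52 to -0.48 in BT483.

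The ratio to expected of BT483, with replicates summed, was 2.00, against 0.976 per kb and 1.57 per fragment of matched targets, 1.53 with the telomeric side alone, and 1.92 to 2.29 by replicate. That of GM06990 was 2.91, against 1.37, 2.20, 1.80 and 2.55 with fragment length as a term. That of SUM44 was 1.64, against 0.793, 1.28, 1.43, 1.55 with length, 1.64 with distance alone, and 1.62 to 1.63 by replicate. Calls of BT483 numbered 1 at an adjusted p of 0.001, with distance alone, with length and with thinned counts, 20 with a Poisson background (0.0290% of all pairs), and 0 to 1 by replicate. Those of GM06990 were 1 at 0.001 and with distance alone, 98 with Poisson (0.204%) and 0 to 2 by replicate, and SUM44 had 26 with Poisson. Single captured fragments had medians of 17 to 26 contacts with the window. In simulated pairs of captured fragment and window, 2-fold increases in BT483 were mostly missed. Decreases and SUM44 were not simulated, and the simulated pairs were not chosen by their contacts.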
